A study of Mus musculus with 6 samples.

Results

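The histone cluster genes are the genes that the array names Hist1h, Hist2h, Hist3h or Hist4h, after the genomic cluster in which they lie. Members were every probe whose symbol begins with one of these stems, a rule by name that uses no measured value, although the family itself was picked with earlier results of these data known. The table held 60 such probes for 56 symbols, of 25697 probes for 18138 symbols in all. By the class letter in the symbol, 6 probes read H1 genes, 15 read H2A, 16 read H2B, 12 read H3 and 11 read H4. The Hist1 cluster supplied 47 of the probes, Hist2 9, Hist3 3 and Hist4 1.

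The samples were whole brains of male FVB mice (FVB/N in the study's methods) on postnatal day 6, and 3 arrays came from hSRY-OFF and 3 from hSRY-ON mice. All carried a single-copy transgene, Signalox-hSRY, at the H11 locus, in which the ubiquitously active CAG promoter precedes a loxP-flanked DsRed2 cassette and then the human SRY gene joined through an IRES to EGFP. In hSRY-OFF mice the cassette was unrecombined and SRY was not switched on, and in hSRY-ON mice it had been excised in the early embryo by Ddx4-Cre from the oocyte, with animals selected to lack the Cre gene itself, so SRY was driven throughout the body and not only in cells that express it naturally. Total RNA was labelled as biotinylated cRNA and hybridized to Illumina MouseRef-8 v2.0 bead arrays. The comparison asks which transcripts differ in brain when human SRY is expressed. The study reports slower growth, minimal suckling and smaller brains in hSRY-ON pups. It chose day 6 partly because the growth difference could be seen by then. What these contribute to any value below cannot be told apart from an action of SRY in the brain. The hSRY-ON mice had dams with Ddx4-Cre, while the dams of the hSRY-OFF mice are not given in the sources used here. By the study's account, oocyte Cre recombines the transgene whether or not a pup inherits Ddx4-Cre, and littermate controls lack the transgene. Unrecombined hSRY-OFF mice would thus have come from other dams and litters. Genotype then goes with dam and litter, and their part in any difference below cannot be told apart from that of SRY.

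Core histones H2A, H2B, H3 and H4 form the protein spool of the nucleosome, and the linker histone H1 binds the DNA where it enters and leaves that spool. Most genes of the clusters are replication-dependent: they are transcribed in S phase, when new DNA needs new nucleosomes, and their mRNAs end in a stem-loop in place of a poly(A) tail. In the brain around birth such transcripts are therefore chiefly known from dividing progenitors, for example those of the cerebellar granule cells. The labelling kit primes from poly(A), so the probes read mainly whatever polyadenylated share of these transcripts was present. The coding sequences of one class are near-identical copies, and probe sequences were not used here, so whether a probe tells one copy from another was not tested. In whole-brain RNA, fewer cells of a type and less RNA per cell cannot be told apart.

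Many H2A and H2B genes lie head to head and share one short promoter. A search of the RefSeq starts for H2A and H2B members on opposite strands with starts within 400 bases found 6 such pairs, and in 4 of them both partners had a probe that was tested. The shared stretches between the starts of those 4 pairs are shown because the partners' probes are compared below. They are given 5′ to 3′ on the plus strand of GRCm38.p6, at chr13:22042950-22043197, chr13:22035644-22035820, chr13:21753913-21754075 and chr13:23574208-23574380, with the CCAAT motif on either strand and the octamer ATTTGCAT in capitals. The spacers are 248, 177, 163 and 173 bases long and hold 5, 3, 3 and 4 CCAAT motifs, and only the second holds the octamer, the word bound by the factor encoded by Pou2f1.
Hist1h2ag and Hist1h2bj: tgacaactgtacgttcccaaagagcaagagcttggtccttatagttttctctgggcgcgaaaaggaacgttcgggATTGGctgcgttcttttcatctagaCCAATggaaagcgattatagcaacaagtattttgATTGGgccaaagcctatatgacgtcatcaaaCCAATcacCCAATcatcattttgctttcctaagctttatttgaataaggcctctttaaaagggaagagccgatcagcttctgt
Hist1h2ah and Hist1h2bk: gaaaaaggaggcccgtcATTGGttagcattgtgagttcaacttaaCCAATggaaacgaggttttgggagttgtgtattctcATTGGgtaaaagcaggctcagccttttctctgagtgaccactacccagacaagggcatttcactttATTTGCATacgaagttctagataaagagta
Hist1h2ak and Hist1h2bn: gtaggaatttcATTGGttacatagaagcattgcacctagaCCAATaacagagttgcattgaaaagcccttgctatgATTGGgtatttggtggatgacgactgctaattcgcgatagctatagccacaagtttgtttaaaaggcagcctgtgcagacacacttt
Hist1h2bf and Hist1h2ad: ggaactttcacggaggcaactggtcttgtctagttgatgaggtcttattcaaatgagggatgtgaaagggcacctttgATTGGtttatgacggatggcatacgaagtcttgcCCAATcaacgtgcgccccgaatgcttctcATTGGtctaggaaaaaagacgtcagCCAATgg

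The 100 bases before the start are shown for the H2A genes Hist1h2ao and Hist2h2ac and the H4 gene Hist1h4j, whose probes were called lower in hSRY-ON, and for Hist1h1c, the one H1 gene with a tested probe, which lay higher. Each is given 5′ to 3′ on the gene's own strand of GRCm38.p6, at chr13:21810267-21810366 (plus), chr3:96220881-96220980 (minus), chr13:21734934-21735033 (plus) and chr13:23738707-23738806 (plus). Capitals mark CCAAT on either strand and the TATA motif TATAAA.
Hist1h2ao: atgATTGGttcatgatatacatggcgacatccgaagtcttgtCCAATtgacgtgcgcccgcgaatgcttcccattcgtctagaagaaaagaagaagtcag
Hist2h2ac: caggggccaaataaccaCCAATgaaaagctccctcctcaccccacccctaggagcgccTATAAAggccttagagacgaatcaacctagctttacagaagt
Hist1h4j: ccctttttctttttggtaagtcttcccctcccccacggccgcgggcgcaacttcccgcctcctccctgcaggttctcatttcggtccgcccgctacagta
Hist1h1c: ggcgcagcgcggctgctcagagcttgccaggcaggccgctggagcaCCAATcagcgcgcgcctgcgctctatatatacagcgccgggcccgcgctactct

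Over windows from 250 bases before to 50 bases after the start, 50 of the 56 symbols had a RefSeq promoter, in 51 windows. CCAAT stood on either strand in 43 of the 51 windows (84.3%), against 37.4% of all 32851 promoter windows. It was in each of the 6 H1, 15 H2A, 13 H2B and 7 H3 windows but in 2 of 10 H4 windows. TATAAA, on either strand, was in 30 windows (58.8%, against 13.6% of all), and ATTTGCAT in 14 (27.5%, against 1.74%), of which 7 were of H2A and 7 of H2B genes. None of the 3 words holds another, and head-to-head partners share much of their windows, so the windows are not independent.

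The arrays were alike in overall detection, with 13816 to 14377 probes above background on each and a median intensity of 200.2 to 219.8. Of 10 probes for neuronal markers, 7 were detected on all 6 arrays and 3 on none, the latter being those of Snap25 and Nefl and 1 of the 3 Dcx probes. The probe for the mouse Sry gene was not detected on any array, and no probe is named for the human transgene or EGFP, so the genotype labels could not be checked against the transgene's own RNA.

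About as many of the histone cluster probes were above background in the P6 brain as among all probes. A probe counted as detected on an array where its detection p-value, the share of negative controls at least as bright, was under 0.05. Of the 60 probes, 28 (46.7%) were detected on all 6 arrays and 20 (33.3%) on none, against 49.5% and 38.1% of all probes, while 6 were detected on 1 or 2 arrays and 6 on 3 to 5. The class with the largest share of usable probes was H2A, in which 10 of 15 probes passed the filter used for testing, and the smallest was H1, in which Hist1h1c was the single tested probe of 6.

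More histone cluster probes were detected on hSRY-OFF than on hSRY-ON arrays. The 3 hSRY-OFF arrays detected 35, 36 and 34 of the 60, and the 3 hSRY-ON arrays 32, 32 and 30, so the counts did not overlap (35 ± 1 against 31.3 ± 1.15, mean ± SD, n = 3 each). Over all probes the numbers detected did overlap, at 14207, 14211 and 13816 on hSRY-OFF and 13972, 14377 and 14083 on hSRY-ON arrays. With the stricter limit of 0.01 the counts were 30, 29 and 29 against 27, 28 and 26. The difference lay mainly among H2B probes, with 11, 10 and 9 detected on hSRY-OFF and 9, 9 and 7 on hSRY-ON arrays, and H3 probes, with 7, 8 and 7 against 5, 7 and 7. The H2A counts were level, at 10, 10 and 11 against 10 on each hSRY-ON array, and 10 H2A probes on each hSRY-OFF array and 9 on each hSRY-ON array also met the 0.01 limit. H4 gave 6 on each hSRY-OFF array and 6, 5 and 5 on hSRY-ON arrays, and H1 gave 1, 2 and 1 against 2, 1 and 1. Probes of a class are not independent samples, and no test was run on these counts.

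**Figure D1:**
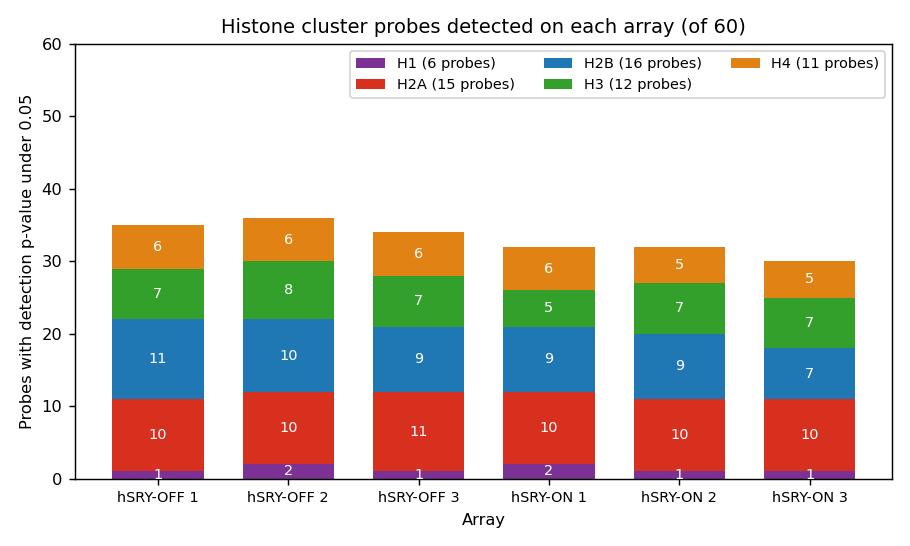
Number of histone cluster probes above background (detection p-value under 0.05), one bar for each of the 6 arrays, stacked by histone class with the count written in each block. The 3 hSRY-OFF bars reach 34 to 36 of 60 and the 3 hSRY-ON bars 30 to 32, while the H2A block stays at 10 or 11.

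Testing required detection on at least 3 arrays, which 34 of the 60 probes met: 1 of H1, 10 of H2A, 10 of H2B, 7 of H3 and 6 of H4. The 26 others, with intensities of 142.4 to 212.0, are given no fold change. Just inside this limit were Hist1h2be, detected on 3 hSRY-OFF arrays and no hSRY-ON array, and Hist1h3g and Hist2h4, each detected on 2 hSRY-OFF arrays and 1 hSRY-ON array. Just outside were Hist1h1b and Hist1h3h, each detected on 1 array of either genotype. Hist1h2be was the only tested member that passed through 1 genotype alone, and because it could pass only by being higher there, its difference is in part set by the filter. Among the untested probes, the 3 hSRY-ON intensities lay below the 3 hSRY-OFF ones for Hist1h1d and Hist1h3c. Hist1h1d, a linker histone gene, read 188, 189 and 188 on hSRY-OFF and 160, 159 and 159 on hSRY-ON arrays, all within background.

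Most tested probes of the clusters had lower values in hSRY-ON brain, and 7 passed the test. Of the 34 tested probes, 28 had a negative log2 fold change (hSRY-ON minus hSRY-OFF) and 6 a positive one, with a median of −0.34, against a median of 0.0048 and 48.9% negative over all 14215 tested probes. At an adjusted p under 0.05, 7 probes (20.6%) were called lower, where 1.32% of all tested probes were, and 0 were called higher, where 0.844% were. One of the 7 is Hist1h2be, whose difference the filter in part sets, and without it 6 of 33 were called lower. At an unadjusted p under 0.05, 22 were lower, against 10.9% of all tested probes, and 1 was higher, against 10.1%. For 20 probes all 3 hSRY-ON values lay below all 3 hSRY-OFF values, which held for 14.2% of all tested probes, and for 1 probe all lay above, which held for 13.5%. In the Hist1 cluster 23 of 25 tested probes were negative and 5 were called lower, while in the Hist2 cluster 4 of 8 were negative and 2 were called lower. Hist3h2ba, the single tested probe of the Hist3 cluster, had a log2 fold change of −0.10 with overlapping arrays, and the Hist4 probe was not tested.

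These calls lie close to the threshold, with adjusted p from 0.0330 to 0.0489. All 7 are lost when the filter on dim probes is left out, with adjusted p from 0.0528 to 0.0745. They are also lost when the replicate number is added to the fit, with adjusted p from 0.0986 to 0.124, although no source pairs the arrays by number. Without any one of the 3 hSRY-OFF arrays, or without hSRY-ON array 1 or 2, 0 histone probes were called and at most 1 probe on the whole array. Without hSRY-ON array 3, 5 were called: 4 of the 7 (Hist1h2af, Hist1h2ao, Hist2h2ab and Hist2h2ac) and Hist1h3a (adjusted p = 0.0428), while Hist1h2ad (0.0524), Hist1h2be (0.0750) and Hist1h4j (0.0625) were lost. In those 6 fits 17 to 22 histone probes were lower at an unadjusted p under 0.05, 22 with all 6 arrays, and each called probe that was retested stayed negative. The sizes given for dim probes belong to the background-corrected scale and are smaller without that correction, as given below for the probes named by rule that moved by over 1.5 times.

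**Figure D2:**
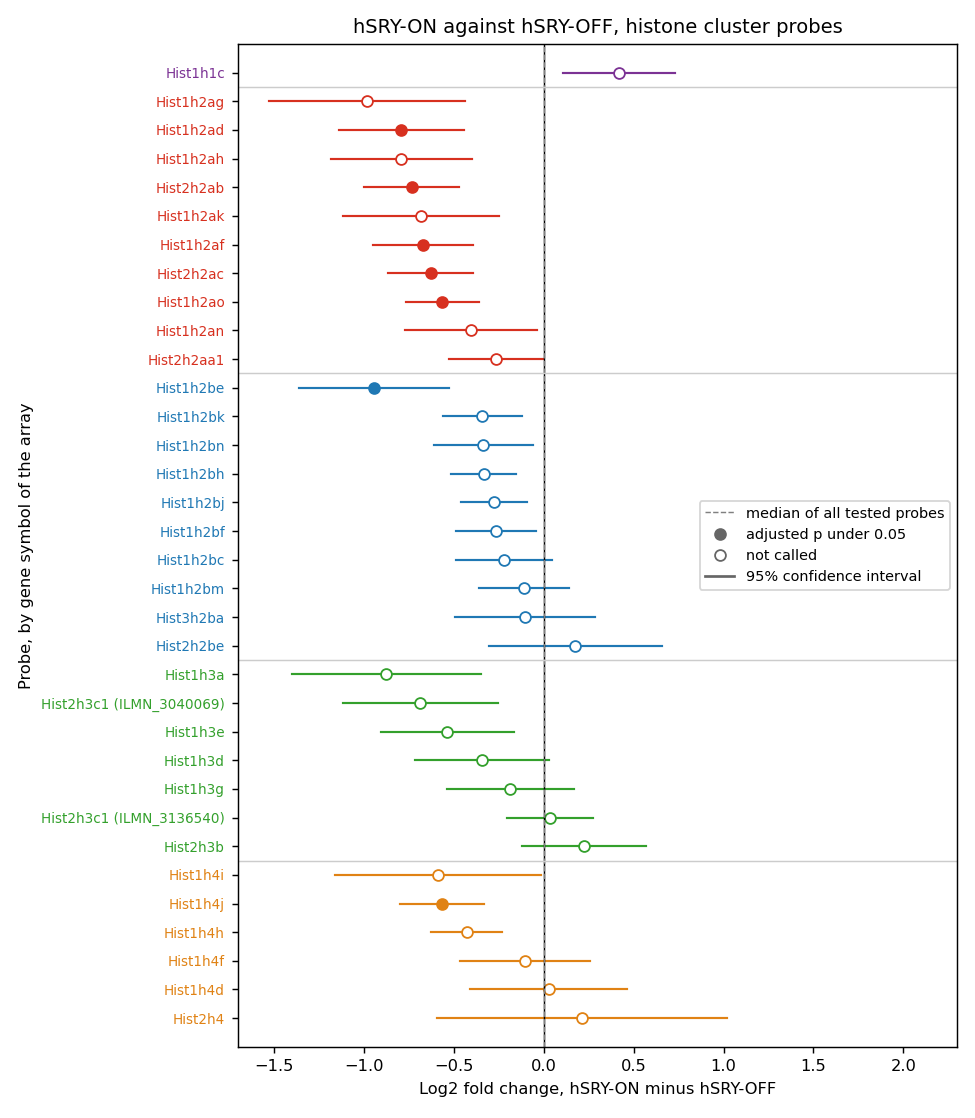
Log2 fold change, hSRY-ON minus hSRY-OFF, of the 34 tested histone cluster probes with 95% confidence intervals, grouped and coloured by class (H1, H2A, H2B, H3, H4 from the top). Filled points mark the 7 probes with an adjusted p under 0.05, all of them negative, and the dashed line is the median of all tested probes at 0.0048.

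The signal of each class was summed over its tested probes on each array, after normalization and on a linear scale. Each probe has a brightness of its own, so these sums describe signal and not numbers of transcripts. H2A summed to 26128 to 29848 on hSRY-OFF arrays and 16267 to 18970 on hSRY-ON arrays, a mean in hSRY-ON of 64.8% of that in hSRY-OFF, with 62.2% of the hSRY-OFF sum coming from Hist1h2ao and Hist2h2ac. H2B summed to 4818 to 5122 against 3981 to 4230 (83.3%), and H4 to 745.1 to 783.5 against 535.0 to 634.6 (77.7%). In all of these classes the genotypes did not overlap. The H3 sums did overlap, at 2524 to 2663 against 2281 to 3008 (99.4%), and 70.8% of the hSRY-OFF sum came from the probe of Hist2h3b and the brighter one of Hist2h3c1, which were not lower. Hist1h1c alone stood for H1, at 1223 to 1267 against 1419 to 2015.

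H1 had 1 tested probe, which had a positive log2 fold change. Hist1h1c (now H1f2) encodes a linker histone that is also made outside S phase. Its intensities were 1597, 1356 and 1360 on hSRY-OFF arrays and 2209, 1482 and 1726 on hSRY-ON arrays. As deposited the genotypes overlapped, and after normalization the 3 hSRY-ON values lay above the 3 hSRY-OFF ones. The fitted difference was 0.42 (SE 0.13, unadjusted p = 0.0147, adjusted p = 0.136), so it did not pass, although it did without background correction (adjusted p = 0.0191) and with a trended, robust prior (adjusted p = 0.00836). Of the other H1 genes, the replication-dependent Hist1h1a, Hist1h1d and Hist1h1e and the testis gene Hist1h1t were detected on 0 arrays, and Hist1h1b, also replication-dependent, on 1 array of either genotype.

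H2A, which pairs with H2B in the nucleosome's outer dimers, had 5 of the 7 calls. Each of its 10 tested probes was lower in hSRY-ON at an unadjusted p under 0.05, against 10.9% of all tested probes. The adjusted threshold was passed by 5, where 1.32% of all were called lower. For 9 all hSRY-ON values lay below all hSRY-OFF values, against 14.2% of all. The log2 fold changes of the 10 ran from −0.98 to −0.27 with a median of −0.68. The median was −0.68 over the 7 Hist1 probes, from −0.98 to −0.41, and −0.63 over the 3 Hist2 probes, from −0.73 to −0.27. Whether the clusters differ was not tested.

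Hist1h2ao (H2ac23) read 11596, 9307 and 9801 on hSRY-OFF arrays and 6419, 6568 and 6869 on hSRY-ON arrays, the brightest of the H2A probes. Every hSRY-ON array was lower, by a fitted log2 difference of −0.56 (SE 0.086, adjusted p = 0.0330), a level 1.48-fold higher in hSRY-OFF. Hist2h2ac (H2ac20), from the Hist2 cluster on chromosome 3, read 9016, 7133 and 7457 against 4598, 5070 and 5161. It fell by 0.63 on the log2 scale (SE 0.099, adjusted p = 0.0348). Hist1h2af (H2ac10) read 2571, 2371 and 2679 against 1505, 1513 and 1719, and its log2 value was lower by a fitted −0.67 (SE 0.12, adjusted p = 0.0413). In these 3 genes the arrays of a genotype stayed close together and the gap between genotypes was wider than the spread within either.

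Hist1h2ad (H2ac7) read 3429, 2322 and 2203 on hSRY-OFF arrays and 1397, 1483 and 1633 on hSRY-ON arrays, a fitted difference of −0.79 (SE 0.15, adjusted p = 0.0479). Hist2h2ab (H2ac21) was dim, at 258, 229 and 220 against 199, 188 and 202, yet detected on all 6 arrays. Its fitted difference of −0.73 (SE 0.11, adjusted p = 0.0340) depended in size on the background correction, being −0.22 without it (adjusted p = 0.0465). The check on simulated data required a false-call share under the threshold for bright probes and allowed a larger one over all probes. The share among dim probes alone was not computed, so calls of dim probes are less secure. With a prior that lets the spread depend on brightness, the adjusted p of Hist2h2ab was 0.0235 and that of Hist1h2be, also dim, was 0.0137.

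The 5 H2A probes that did not pass were also lower on every or nearly every hSRY-ON array. Hist1h2ag (H2ac11) had a fitted difference of −0.98 (SE 0.23, adjusted p = 0.0766), which was −0.54 without background correction, with 557, 359 and 347 on hSRY-OFF and 255, 284 and 282 on hSRY-ON arrays. Hist1h2ah (H2ac12) had −0.79 (SE 0.17, adjusted p = 0.0598), from 2884, 1956 and 1829 against 1108, 1366 and 1331. Hist1h2ak (H2ac15) had −0.68 (SE 0.18, adjusted p = 0.101), from 3077, 1962 and 1714 against 1242, 1452 and 1379. In these 3 probes and in Hist1h2ad, hSRY-OFF array 1 was far above the other 2 hSRY-OFF arrays. Hist1h2an had −0.41 (SE 0.16), or −0.25 without hSRY-OFF array 3, and Hist2h2aa1, the single H2A probe whose normalized values overlapped, −0.27 (adjusted p = 0.232).

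hSRY-OFF array 1 was the highest of its group for 7 of the 10 H2A probes, and the H2A probes lay a median of 0.12 above their group mean there on the log2 scale, against 0.015 for all tested members. Among the hSRY-ON arrays, array 1 was the highest for 0 of the 10, with a median of −0.15. Without hSRY-OFF array 1 the 10 H2A probes were all still lower, Hist1h2ad at −0.65 and Hist1h2ao at −0.53, but 0 were called.

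**Figure D3:**
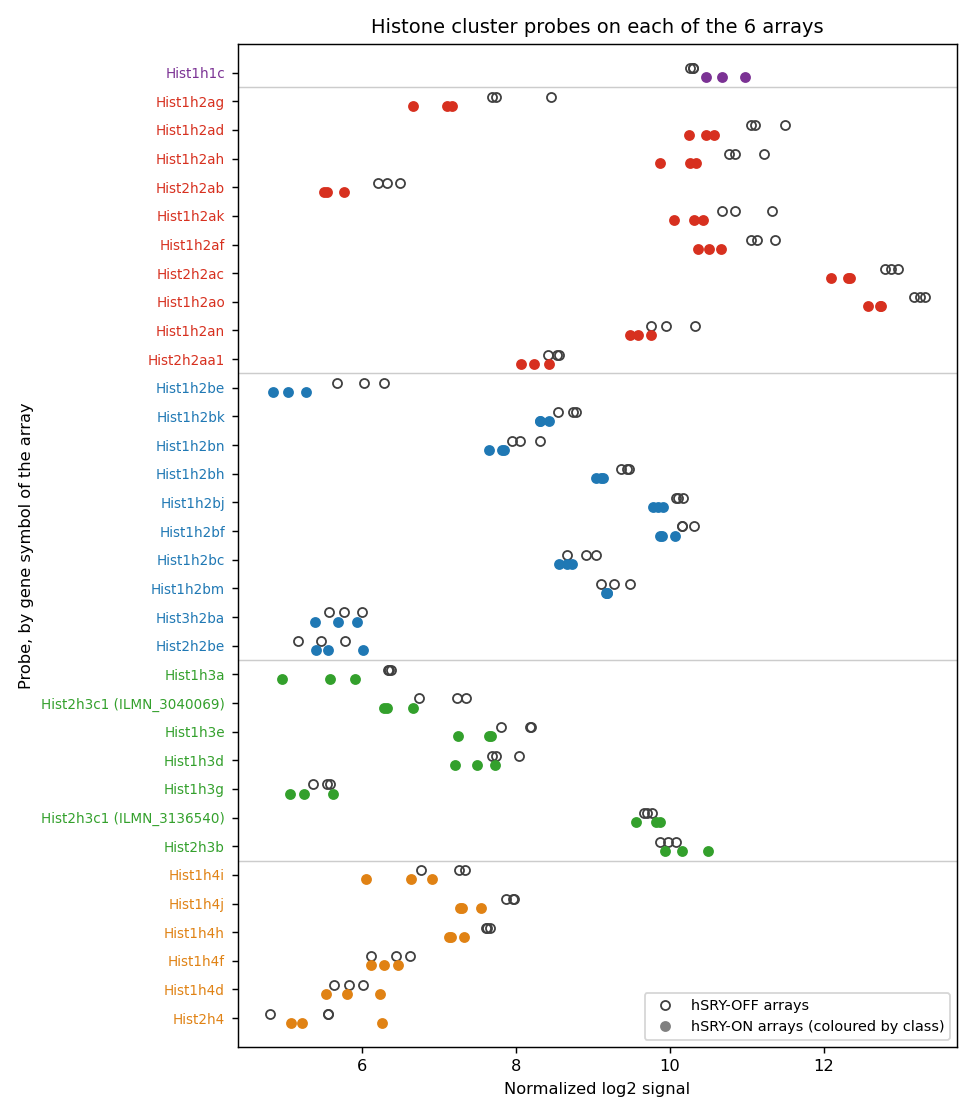
Normalized log2 signal of each of the 34 tested probes on each array, with hSRY-OFF arrays as open circles and hSRY-ON arrays as filled circles coloured by class. For 9 of the 10 H2A probes the filled circles all lie left of the open ones, and in several of them 1 open circle, hSRY-OFF array 1, stands to the right of the other two; signals of different probes are not to be ranked against each other.

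H2B, the partner of H2A, had 1 call, and whether it differed by less than H2A was not tested. Of its 10 tested probes 9 were negative, 6 of them at an unadjusted p under 0.05, against 10.9% of all tested probes. There was 1 called lower, where 1.32% of all were, and the median log2 fold change was −0.27. The called probe, Hist1h2be (H2bc6), read 229, 199 and 224 on hSRY-OFF arrays and 173, 180 and 177 on hSRY-ON arrays, where it was not detected. On the background-corrected scale it was at least 1.47-fold higher in hSRY-OFF, taking for each hSRY-ON array the higher of the probe's own level and the dimmest detected probe, and the fitted log2 difference was −0.94 (SE 0.18, adjusted p = 0.0489). That size holds for this scale alone, since without background correction the value was −0.27 (adjusted p = 0.0295). The probe passed the filter through hSRY-OFF only, which in part fixes the difference, and its call was lost with array weights (adjusted p = 0.0555).

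In 5 other H2B probes the genotypes did not overlap either, with log2 fold changes that did not pass. All hSRY-ON values lay below all hSRY-OFF values for 14.2% of all tested probes. Hist1h2bh had −0.33 (SE 0.077, adjusted p = 0.0730), from 911, 841 and 827 on hSRY-OFF and 713, 650 and 685 on hSRY-ON arrays. Hist1h2bk had −0.34 (adjusted p = 0.105), Hist1h2bj −0.27 (adjusted p = 0.114), Hist1h2bn −0.33 (adjusted p = 0.164, and −0.21 without background correction) and Hist1h2bf −0.26 (adjusted p = 0.169). Hist1h2bf, the brightest H2B probe, read 1464, 1414 and 1242 against 1124, 1034 and 1173. Hist1h2bc (−0.22), Hist1h2bm (−0.11) and Hist3h2ba (−0.10) had overlapping arrays, and the second Hist1h2bc probe was at background. Hist2h2be, a Hist2 gene known for a variant H2B of olfactory neurons, had 0.18 with a 95% interval from −0.30 to 0.66. Hist3h2bb, which RefSeq now names a pseudogene (H2bu1-ps), and the testis gene Hist1h2ba were not tested.

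The 4 head-to-head pairs allowed H2A and H2B to be set side by side over one shared promoter. In each, the H2A probe had the more negative log2 fold change: −0.98 for Hist1h2ag against −0.27 for Hist1h2bj, −0.79 for Hist1h2ah against −0.34 for Hist1h2bk, −0.68 for Hist1h2ak against −0.33 for Hist1h2bn, and −0.79 for Hist1h2ad against −0.26 for Hist1h2bf. The pairs were looked for after these values were known, so what follows is a description with no test.

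The log2 difference of the H2A from the H2B probe was taken on each array. For Hist1h2ad and Hist1h2bf it was 1.34, 0.79 and 0.91 on hSRY-OFF arrays and 0.35, 0.60 and 0.51 on hSRY-ON arrays. For Hist1h2ag and Hist1h2bj it was −1.62, −2.37 and −2.48 against −3.24, −2.61 and −2.74. In both pairs the genotypes did not overlap, nor did they for Hist1h2ah and Hist1h2bk (2.68, 2.06 and 2.03 against 1.44, 2.03 and 1.95), where the nearest arrays all but touched. They overlapped for Hist1h2ak and Hist1h2bn (3.03, 2.90 and 2.62 against 2.24, 2.79 and 2.48).

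hSRY-OFF array 1 had the highest difference in each of the 4 pairs. The mean change of the difference from hSRY-OFF to hSRY-ON was −0.71 for Hist1h2ag and Hist1h2bj, −0.45 for Hist1h2ah and Hist1h2bk, −0.35 for Hist1h2ak and Hist1h2bn and −0.52 for Hist1h2ad and Hist1h2bf. Without that array it was −0.44, −0.24, −0.26 and −0.36, smaller by over 1.5 times in the first and second pair. Without background correction, with all arrays, it was −0.30, −0.47, −0.41 and −0.50, so the pair of Hist1h2ag and Hist1h2bj, whose H2A probe is dim, then had the smallest change and not the largest. Without hSRY-ON array 1 it was −0.27 for Hist1h2ah and Hist1h2bk and −0.22 for Hist1h2ak and Hist1h2bn, and the sign held in every pair whichever array was left out. The partners' probes were not tested for telling their own gene from its near-copies, so a difference between partners can also be one between groups of copies.

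**Figure D4:**
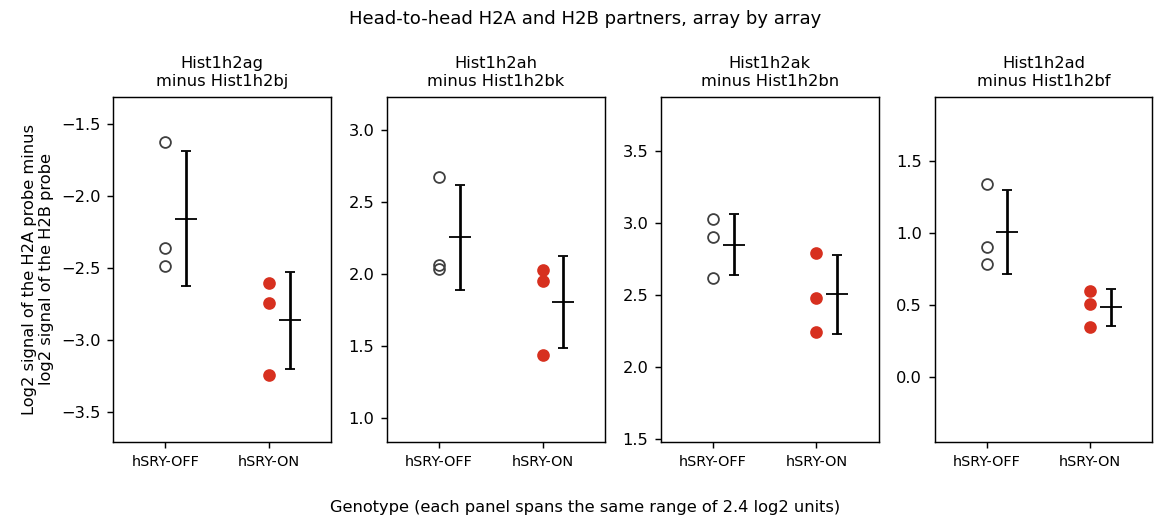
Log2 signal of the H2A probe minus that of its head-to-head H2B partner on each array, with hSRY-OFF arrays open and hSRY-ON arrays filled, and mean ± SD (n = 3) beside them. All 4 means are lower in hSRY-ON, with changes from −0.71 to −0.35, the highest open circle in each panel is hSRY-OFF array 1, and the heights of different panels are not comparable.

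H3, the core histone whose tail carries many of the known chromatin marks, was mixed. Of 7 tested probes 5 were negative and 2 positive. At an unadjusted p under 0.05, 3 were lower, against 10.9% of all tested probes. None was called, where 1.32% of all were called lower. The median log2 fold change was −0.34. That median was −0.54 when hSRY-ON array 3 was left out, −0.50 when hSRY-OFF array 3 was, and −0.21 when hSRY-ON array 1 was. It was −0.19 without background correction and −0.21 without the filter on dim probes. Hist1h3a read 250, 230 and 228 on hSRY-OFF arrays and 178, 191 and 208 on hSRY-ON arrays, 1 of which did not detect it, and had −0.87 (SE 0.22, adjusted p = 0.0890), or −0.26 without background correction. Hist1h3e read 486, 436 and 362 against 307, 337 and 346, with −0.53 (SE 0.16, adjusted p = 0.120), or −0.32 without background correction. In both the hSRY-ON arrays all lay lower. Hist1h3d had −0.34 and Hist1h3g −0.18.

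The Hist2 cluster had 3 tested H3 probes for 2 genes. Hist2h3c1 had a pair of probes that disagreed: ILMN_3040069 read 276, 310 and 293 on hSRY-OFF and 233, 220 and 247 on hSRY-ON arrays (−0.69, SE 0.18, adjusted p = 0.0990, and −0.29 without background correction), while ILMN_3136540 read 1108, 954 and 986 against 1065, 872 and 1042 (0.04, 95% interval −0.20 to 0.28, adjusted p = 0.875). Hist2h3b, the brightest H3 probe, read 1378, 1154 and 1042 against 1320, 1080 and 1550, overlapping throughout (0.22, SE 0.15, adjusted p = 0.429, and 0.08 without hSRY-ON array 3 or 0.36 without hSRY-ON array 2). The direction for Hist2h3c1 therefore depends on the probe, and no single value is given for the gene.

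H4, the partner of H3 in the core tetramer, had 4 negative and 2 positive values among 6 tested probes. It had 1 call, where 1.32% of all tested probes were called lower, and a median of −0.27. That median was −0.41 when hSRY-OFF array 1 was left out, −0.44 when hSRY-OFF array 3 was, and −0.48 when hSRY-ON array 1 was. It was −0.13 without background correction and −0.10 without the filter on dim probes. Hist1h4j (H4c11) read 423, 394 and 391 on hSRY-OFF arrays and 308, 324 and 300 on hSRY-ON arrays, every hSRY-ON array being lower, and fell by 0.57 on the log2 scale (SE 0.099, adjusted p = 0.0413), or by 0.32 without background correction. Hist1h4h read 386, 343 and 337 against 315, 280 and 287, again without overlap, and missed the threshold by little (−0.43, SE 0.083, adjusted p = 0.0520, and −0.23 without background correction). Hist1h4i had −0.59 with a wide error (SE 0.24, adjusted p = 0.231) and overlapping arrays. Hist1h4f (−0.10), Hist1h4d (0.03) and Hist2h4 (0.22) were dim, and their arrays overlapped.

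Histone variant genes listed as replication-independent had 7 negative and 3 positive values among 10 tested probes. Most of them are transcribed throughout the cell cycle, and Cenpa later in it. Of these 0 were called, and 2 were lower and 1 higher at an unadjusted p under 0.05, with a median log2 fold change of −0.05. The lower values were those of Cenpa, the centromeric H3 (−0.72, SE 0.15, adjusted p = 0.0584), and H2afx, the H2A of DNA damage signalling (−0.30, SE 0.10, adjusted p = 0.155). H3f3b, one of the genes of H3.3, had 0.26 (adjusted p = 0.170), H1f0, the linker histone of resting cells, 0.43 (adjusted p = 0.273), and H2afz, the H2A.Z gene, −0.03 (adjusted p = 0.863). Whether the replication-dependent and replication-independent genes differ was not tested.

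Genes that make, process and carry histones were given by lists. For processing of the stem-loop mRNA, 0 of 7 tested probes were called and 0 passed an unadjusted p under 0.05. Over all tested probes 10.9% were lower and 10.1% higher at that limit. The median was −0.13, with Lsm11 of the U7 particle at −0.19 and Lsm10 at −0.07. The probe for Slbp, which encodes the stem-loop binding protein, did not reach the detection filter. Among chaperones, which deliver histones to DNA, 0 of 21 were called, 4 were lower and 4 higher at an unadjusted p under 0.05, against 10.9% and 10.1% of all tested probes, and the median was 0.01. Those lower included Hat1, which acetylates new H4 (−0.33, adjusted p = 0.0743), and Asf1b, an H3-H4 chaperone of dividing cells (−0.34, adjusted p = 0.107).

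For histone gene transcription, 1 of 15 tested probes was called lower, where 1.32% of all tested probes were. Negative values were found in 12, against 48.9% of all, and the median was −0.41. The list holds general genes of S phase entry (Cdk2, cyclin E and E2f genes) beside factors of histone genes. The 15 probes were of 9 genes, so some genes count several times. The called probe was 1 of 4 for Cdk2, the kinase that with cyclin E starts S phase (ILMN_1250942, −0.69, SE 0.12, adjusted p = 0.0405), and the other 3 Cdk2 probes had −0.48, −0.45 and −0.47 without passing. Ccne2, a cyclin E gene, had −0.78 (adjusted p = 0.0570), and the tested probes of E2f2, an activator of S phase genes, had −0.67 (adjusted p = 0.0811) and −0.41. Pou2f1, whose product binds the octamer, went the other way in all 3 of its tested probes, at 0.31, 0.20 and 0.18, without passing.

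Most probes of the cell-cycle lists also had negative values. Of the S phase list, 18 of 21 tested probes were negative, against 48.9% of all tested probes. At an unadjusted p under 0.05, 12 were lower, against 10.9% of all, and the median was −0.47. There were 2 called lower, where 1.32% of all tested probes were: Tyms, which makes thymidylate (−0.63, SE 0.096, adjusted p = 0.0330), and Mcm4 of the replicative helicase (−0.47, SE 0.079, adjusted p = 0.0386). The summed signal of that list was 9345 to 10040 on hSRY-OFF and 6868 to 8303 on hSRY-ON arrays. Of the mitosis list, 16 of 16 were negative and 9 probes, of 7 of its 10 tested genes, were called lower, with a median of −0.91, among them Top2a (−1.08, SE 0.16, adjusted p = 0.0327), the topoisomerase that untangles replicated DNA, and Cdc2a (−1.05, SE 0.20, adjusted p = 0.0484), the mitotic kinase. Its summed signal was 6492 to 7292 against 3161 to 4527. Over all the lists, including the neuronal one, 13 probes were called, against 5 without the filter on dim probes, 0 without any one of the 3 hSRY-OFF arrays or without hSRY-ON array 1 or 2, and 25 without hSRY-ON array 3. These lists were chosen with results of these same arrays known and are not independent evidence, the lists were not tested against the histones, and what part of the histone differences goes with the number of cycling cells was not tested.

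Erythroid and neuronal genes were measured as checks of blood content and of tissue makeup. Of 6 tested erythroid probes 0 were called and 0 passed an unadjusted p under 0.05. Over all tested probes 10.9% were lower and 10.1% higher at that limit. The erythroid median was −0.02, and the summed signal was 33013 to 37668 on hSRY-OFF and 29875 to 36971 on hSRY-ON arrays. Of 7 tested neuronal probes 1 was called higher, where 0.844% of all tested probes were, and the median was 0.08. The called probe was that of the growth cone gene Gap43 (0.45, SE 0.083, adjusted p = 0.0479), close to the threshold and subject to the same limits as the other 12 calls. Their summed signal was 49745 to 54357 against 53990 to 56097. The part of either in the histone values was not tested.

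**Figure D5:**
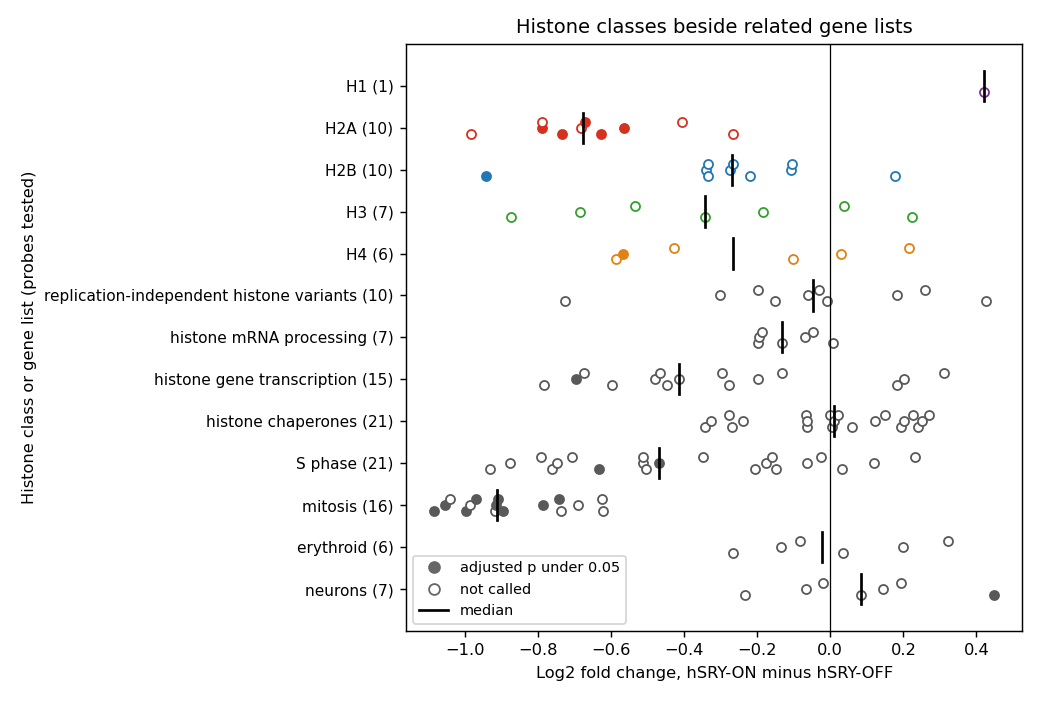
Log2 fold change, hSRY-ON minus hSRY-OFF, of each tested probe of the 5 histone classes and of 8 related gene lists, with the median as a bar and filled points at an adjusted p under 0.05. The medians run from −0.91 for mitosis and −0.68 for H2A to 0.08 for neurons and 0.42 for the single H1 probe.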

How the data were processed

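The authors hybridized biotinylated cRNA of 6 whole-brain samples to bead arrays and deposited, for each probe and array, a mean bead intensity on a linear scale, not normalized, and a detection p-value set against negative controls. Image analysis and genome build are not given in the sources used here. The methods name the package TCC without settings, and it was not used here. Groups and replicate numbers came from the sample titles. The methods describe biological triplicates for each genotype, so p-values measure the spread between these samples.

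Background mean and SD were estimated through the detection p-values, whose steps corresponded to 798 negative controls, and intensities were corrected with normexp (offset 16), put on the log2 scale and quantile normalized in R 4.3.3 with limma 3.58.1. The 14215 probes that 3 or more of the 6 arrays detected (p under 0.05) were fitted with lmFit and eBayes, with the group as the only term. Tests were two-sided with Benjamini-Hochberg adjustment over all of them, and each adjusted p in the text is from limma. With 3 arrays a group, their number limits the precision. The fit was run on simulated data with known answers. The share of false calls had to stay under the threshold for bright probes, while a larger share was allowed over all probes. Dim probes were not scored alone. Lists were described by counts and medians, with no test.

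Named members were all called probes, up to 15 others whose genotypes did not overlap, by lowest p, the brightest probe of each class and those next to the filter; from each list, the called genes and up to 4 others by lowest p. Others are named in the text for completeness and were chosen after their values were seen. The members and lists were chosen with earlier results of these data known. All 56 symbols matched the RefSeq table of GRCm38.p6, as synonyms of newer symbols. Alternatives covered background correction, normalization, filter, prior, array weights, pairing, probe choice and single arrays. For the pair differences, leaving out arrays and the background correction was added after seeing the data. Figures were drawn with matplotlib 3.10.9.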

Additional observations from a re-analysis of the deposited data

How the results depend on the processing

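Against 7 histone probes called, 19 were called without background correction (18 lower), 14 with normexp on the signals and an offset of 50, 17 with a trended, robust prior (16 lower) and 13 at an adjusted p under 0.10, but 0 without the filter on dim probes, which tests more probes, and 0 with the replicate block. Leaving out 1 array at a time gave 0 to 5, with fewer samples. Of the list genes, where 13 probes were called, the counts were 38, 33 and 38 under the first 3 of these settings, 5 without the filter, 29 with detection under 0.01 on all arrays, 21 with array weights, 0 with the replicate block and 0 to 25 with 1 array left out.

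The median log2 fold change of the members was −0.24 without background correction, −0.14 without the filter and −0.41 to −0.33 with 1 array left out. Without background correction it was −0.22 for H2B, −0.19 for H3 and −0.13 for H4, and without the filter 0.016 for H1, −0.15 for H2B, −0.21 for H3 and −0.10 for H4. With detection under 0.01 on all arrays it was −0.50 for H4. With 1 array left out it ran from −0.73 to −0.59 for H2A, −0.30 to −0.21 for H2B, −0.54 to −0.21 for H3, −0.48 to −0.25 for H4 and 0.29 to 0.54 for H1. The mean number of detected members differed by −3.67 between genotypes and by −2.33 at the 0.01 limit. The causes were not tested. Median scaling, cyclic loess and 1 probe per symbol kept the number of called members within 7 to 8.

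For the named members, 259 refitted values kept direction and side of the threshold, 36 gained and 50 lost the call, and 0 reversed. Same-numbered arrays of the genotypes share a number without a stated pairing. Their deviations from the group means correlated by 0.04, 0.029 and 0.025, each highest for its own number, which is a hint from the data only. Dim probes limit what can be said of the 26 untested members.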
